A study of Mus musculus with 9 samples.

Results

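The genes described here are molecular chaperones of the mouse hippocampus and their partners. They comprise heat-shock proteins of the HSP70, HSP110, HSP90, HSP60, HSP10 and small heat-shock classes, J-domain (Dnaj) and BAG proteins, and subunits of the chaperonin CCT. All were chosen by name, so some, such as Dnajb9 and Dnajb11, work in the endoplasmic reticulum. Of 38898 gene symbols in the table, 87 began with Hspa, Hspb, Hspd, Hspe, Hsph, Hsp90, Dnaja, Dnajb, Dnajc, Bag or Cct. Hspa5, Hsp90b1 and Hspb1 were left out by name (3 symbols), 35 had a mean count under 5 over the CTL and SAE libraries, and 49 members remained. By class these were 7 HSP70 and HSP110 genes, 2 HSP90 genes, 2 genes of the HSP60 and HSP10 pair, 4 small heat-shock genes, 2 BAG genes, 7 CCT subunits, and 3 DNAJA, 8 DNAJB and 14 DNAJC genes.

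The study sequenced ribosome-depleted total RNA of whole hippocampus from 9 adult BALB/c mice kept free of specific pathogens, 1 library per mouse. CTL stands for 3 mice given a sham operation. SAE stands for 3 mice whose cecum was ligated and punctured (CLP), which models sepsis from the gut, and who received nothing else. CCLF stands for 3 mice given CLP and 200 mg/kg of CCLF, the flavonoids of Cuscuta chinensis. The labels give neither sex, age nor the time between surgery and sampling. All values are counts of reads per gene, or CPM, counts scaled to library size. Means are given ± SD over n = 3 libraries per group. A log2 fold is SAE minus CTL unless said otherwise, with an approximate standard error (SE), and a gene is called when its p adjusted over all tested genes is under 0.05 in edgeR's quasi-likelihood test.

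Chaperones bind proteins that are unfolded or not yet folded. HSP70 proteins hold short exposed stretches in cycles of ATP binding and hydrolysis, which J-domain proteins start and BAG and HSP110 proteins reset by exchanging the nucleotide. HSP90 acts later on kinases and steroid receptors, CCT folds actin and tubulin inside a closed barrel, HSP60 and HSP10 form a like barrel in mitochondria, and small heat-shock proteins hold clients without ATP. Many of these genes are induced by heat-shock factor 1, which binds repeated GAA units of alternating orientation in their promoters. Neurons express several of them at high levels without any stress, HSP90 above all.

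Facts of the libraries come first, since they touch every value. Library totals ran from 4626519 to 4895474 counts. Lcn2, an acute-phase gene that brain tissue commonly raises in inflammation, had 13246 to 14822 counts in CTL, 6 to 14 in SAE and 4524 to 9635 in CCLF. That order is the opposite of the one usually seen after sham surgery and CLP, so CTL, SAE and CCLF mean here only the libraries carrying those labels, and a direction drawn between them rests on the labels. Of 10 excitatory hippocampal neuron markers, 9 had counts and Spink8 was listed at 0. They summed to 7966 to 8135 CPM in CTL and 8791 to 9065 in SAE. Most of that sum was Slc17a7 (5625 CPM in CTL and 6326 in SAE), while Prox1 had only 3 to 11 counts. Oligodendrocyte markers summed to 949 to 1021 CPM in CTL and 1352 to 1550 in SAE, and endothelial markers to 373 to 431 and 598 to 715. Within these lists Hapln2 (log2 fold -1.39) and Cldn5 (-1.06) went the other way and were lower in SAE. Neutrophil markers summed to 49.6 to 73.5 CPM in CTL and 2.88 to 4.69 in SAE, with S100a9, Ly6g and Csf3r listed at 0. Choroid plexus markers summed to 563 to 887 CPM in CTL and 765 to 1530 in SAE, and ependymal markers to 15.7 to 18.9 and 23.7 to 39.0. In whole tissue, fewer cells of a type and less RNA per cell cannot be told apart. The part of these shifts in the chaperone values was not tested.

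The CCLF columns stand apart in another way. In the 4592 genes with a mean count of at least 50, 442 differed by 2-fold or more between CTL and SAE, and the CCLF mean lay between the other group means in 441 of them (99.8%). CCLF libraries differed from each other by less than counting noise in the typical gene, with a median chi-square of 0.232 to 0.261 per pair, where counting noise alone gives 0.455 and pairs within CTL or SAE gave 0.756 to 0.917. The mean chi-square was 4.78 to 5.86 within CCLF and 1.85 to 4.51 within CTL or SAE, so some genes differed more. The median gene of each CCLF library lay 0.0636 to 0.0646 (log2) from the mean of the 6 CTL and SAE libraries, against 0.153 to 0.198 for a CTL or SAE library and the other 5. The CCLF columns may therefore not be 3 independent libraries. How they came to lie there was not tested, and every n and adjusted p given for CCLF holds only if they are independent. SAE was compared with CTL in a fit of those 6 libraries alone, because the rule for members reads only these 2 groups. An earlier account of these data had also found the CCLF libraries more variable. Comparisons with CCLF are kept to paragraphs of their own.

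The promoter sites that the later paragraphs refer to are shown first, because heat-shock elements are the shared control known for these genes. RefSeq promoter windows of build GRCm38.p6, from 250 bases before to 50 bases after a gene's start, were found for 41 of the 49 members. They were searched on both strands for 3 alternating units in 13 letters, GAANNTTCNNGAA or TTCNNGAANNTTC, and for 2 units in 8 letters, GAANNTTC or TTCNNGAA, which lie within the longer ones. The first line shows the site between the RefSeq starts of Hspe1 and Hspd1, which are read in opposite directions from 1 region and share it. The others are Dnajb6, the remaining member with 3 units, the near-identical pair Hspa1a and Hspa1b, and a gene that was higher (Dnaja4) and genes that were lower (Dnajc27, Hspb6) in SAE. Capitals mark the matched letters, and each sequence runs 5′ to 3′ on the strand of its gene.
Hspe1: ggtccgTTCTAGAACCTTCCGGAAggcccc
Dnajb6: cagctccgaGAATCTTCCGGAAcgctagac
Hspa1a: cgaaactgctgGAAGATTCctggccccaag
Hspa1b: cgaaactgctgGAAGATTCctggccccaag
Dnaja4: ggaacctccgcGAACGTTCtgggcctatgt
Dnajc27: cacccatcggtGAAGATTCcaggaaaaaaa
Hspb6: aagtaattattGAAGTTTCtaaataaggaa

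The Hspe1 site lay at chr1:55088053-55088082 on the plus strand. Its first base was 89 bases before the RefSeq start of Hspe1 and, on the minus strand, 144 bases before that of Hspd1. The GENCODE model of Hspd1 runs to base 55088243 and so covers the site. The Dnajb6 site lay at chr5:29735843-29735872 on the plus strand, 46 bases before 1 of the gene's starts. The Hspa1a site was at chr17:34972242-34972271 and the Hspa1b site at chr17:34959324-34959353, both on the minus strand and 104 bases before the start. These sites read the same letters, and the whole windows of the pair were identical at 296 of 300 bases. The Dnaja4 site lay at chr9:54699458-54699487 (plus strand, 90 bases before the start), the Dnajc27 site at chr12:4082350-4082379 (plus, 213 before) and the Hspb6 site at chr7:30553170-30553199 (plus, 120 before 1 of its starts).

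The 13-letter element was present in 3 of 41 members (7.32%), against 179 of 27025 genes with a window (0.662%). The 3 members were Hspd1, Hspe1 and Dnajb6, of which Hspd1 and Hspe1 share 1 site. None of them was called in SAE against CTL. Hspd1 (9 to 18 counts in CTL and SAE) and Dnajb6 (6 to 19) had too few counts for that to say much. Hspd1 was called with its larger RefSeq row alone, as given below. The 8-letter pair stood in 16 of 41 members (39%), against 17% of all genes. It was found in 1 of 6 members that were higher in SAE (16.7%), 5 of 13 that were lower (38.5%) and 9 of 19 that were not called (47.4%). A match is a run of letters, and no binding was measured.

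Not every chaperone could be measured, and which ones could went with how many RefSeq transcripts the table lists for a gene. Of the 84 symbols, 31 had a single RefSeq row, and 27 of those passed the mean count of 5 (87.1%). The other 53 had several rows, and 22 passed (41.5%). Their median mean count was 3.17, against 780 for the symbols with a single row. Among all genes of the table the shares with a mean of at least 5 were 27.1% for a single row and 24.5% for several.

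The genes that dropped out include some of the best-known chaperones of brain. Hspa8, the constitutive HSP70, had 0 to 2 counts in each CTL and SAE library and a mean of 0.667. Hsph1, which encodes HSP110, had 0 to 7 counts (mean 3.17). Bag6, with 47 rows, Bag1 and Dnajc5, a synaptic vesicle J-domain protein, were listed at 0 in all 6 libraries, among 10 symbols listed at 0 there. Tcp1, the CCT alpha subunit that the name rule does not reach, had 0 to 2 counts. Such zeros in genes that every cell uses may be failed estimates, so no level is drawn from them. Just inside the minimum lay Hspb3 (mean 6), Hspb7 (7) and Hspa12b (9.5), and just outside it Hspa2 (4.83), Dnajc13 (4.5) and Dnajb14 (4). The plot of mean count by number of rows shows this for every symbol.

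**Figure D1:**
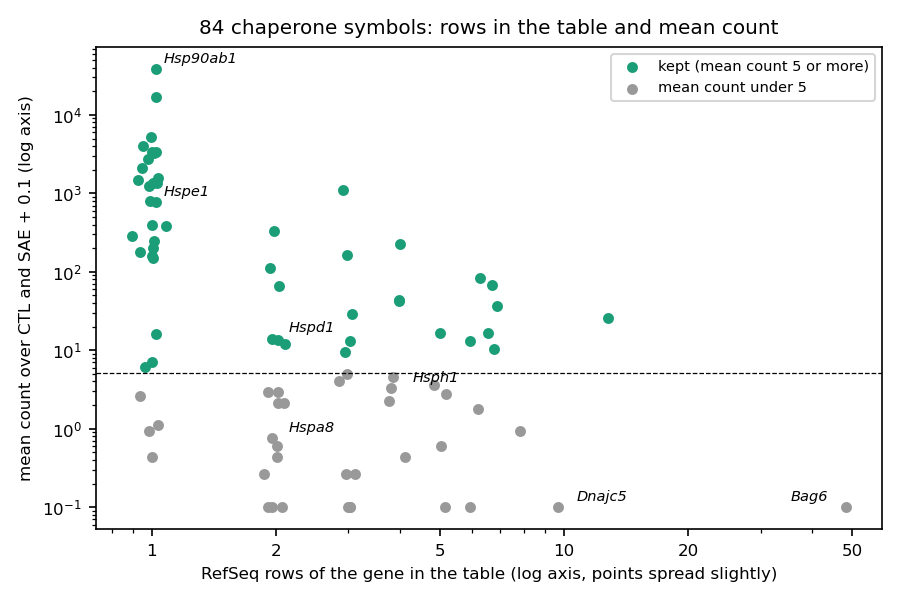
Each point is 1 of the 84 chaperone symbols, with the number of RefSeq rows in the table on the x axis (log scale, points spread slightly sideways) and the mean count over the 6 CTL and SAE libraries plus 0.1 on the y axis (log scale). The dashed line is the minimum mean count of 5. Green points passed it and grey points did not. Of the symbols with a single row 27 of 31 passed, and of those with several rows 22 of 53.

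Between SAE and CTL, 46 of the 49 members had enough counts to be tested. Of these, 7 were higher in SAE (15.2%, where 23.7% of all 8213 tested genes were higher), 17 were lower (37%, against 23.9% of all genes) and 22 were not called. The 24 called members make 52.2% of those tested, close to the 47.6% called among all genes. Changes were small: 9 members were called and at least 1.5-fold apart (19.6%, against 27.7% of all genes), and the median size of the log2 fold was 0.25, against 0.37 over all genes. CTL and SAE libraries did not overlap in 28 tested members (60.9%), against 55.7% of all tested genes. The median log2 fold was -0.02 for the members and 0.00 for all genes. With CTL replicate 2 left out only 4 members were higher, because Cct4, Dnaja4 and Dnajc19 lost their calls. In that fit 40.4% of members and 41.1% of all genes were called. In a fit of genes with a single RefSeq row, 25 members were tested, 4 of them higher and 11 lower. That is 60% called, where 53.7% of all genes in that fit were. Hspb6, Dnajc27, Dnajc14, Dnajc7, Dnaja4 and Dnajc19, all called and at least 1.5-fold apart, have several rows and could not enter it. The low counts of these genes may be failed estimates too, and their folds hold only as far as those counts do.

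By class, both BAG genes and both testable small heat-shock genes were lower, and so were 4 of 7 CCT subunits, with 1 higher. Of 14 DNAJC genes 3 were higher and 6 lower, while of 8 DNAJB genes 1 was lower and 7 were not called. Summed over all 49 members, expression was 20147 to 20470 CPM in CTL, 18272 to 19172 in SAE and 18800 to 19762 in CCLF. The SAE libraries all lay below the CTL libraries, but this rested on Hsp90ab1: without it the sums were 11379 to 11560 CPM in CTL and 11048 to 11592 in SAE, which overlap. The HSP70 and HSP110 sum went the other way, with 2172 to 2276 CPM in CTL and 2344 to 2406 in SAE. This rested on Hspa4, which had 647 to 680 CPM in CTL and 1032 to 1075 in SAE. It does not hold for the class as a whole, where 2 genes were higher, 1 was lower and 3 were not called. HSP90 made up 60.6% of the CTL sum, CCT 14.2% and the HSP70 and HSP110 genes 10.9%. These shares hold only for the 49 members, since Hspa8 and Hsph1 dropped out and Dnaja1 and Hspd1 had few counts. Such low counts may be failed estimates, so the shares do not rank the classes in hippocampus.

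**Figure D2:**
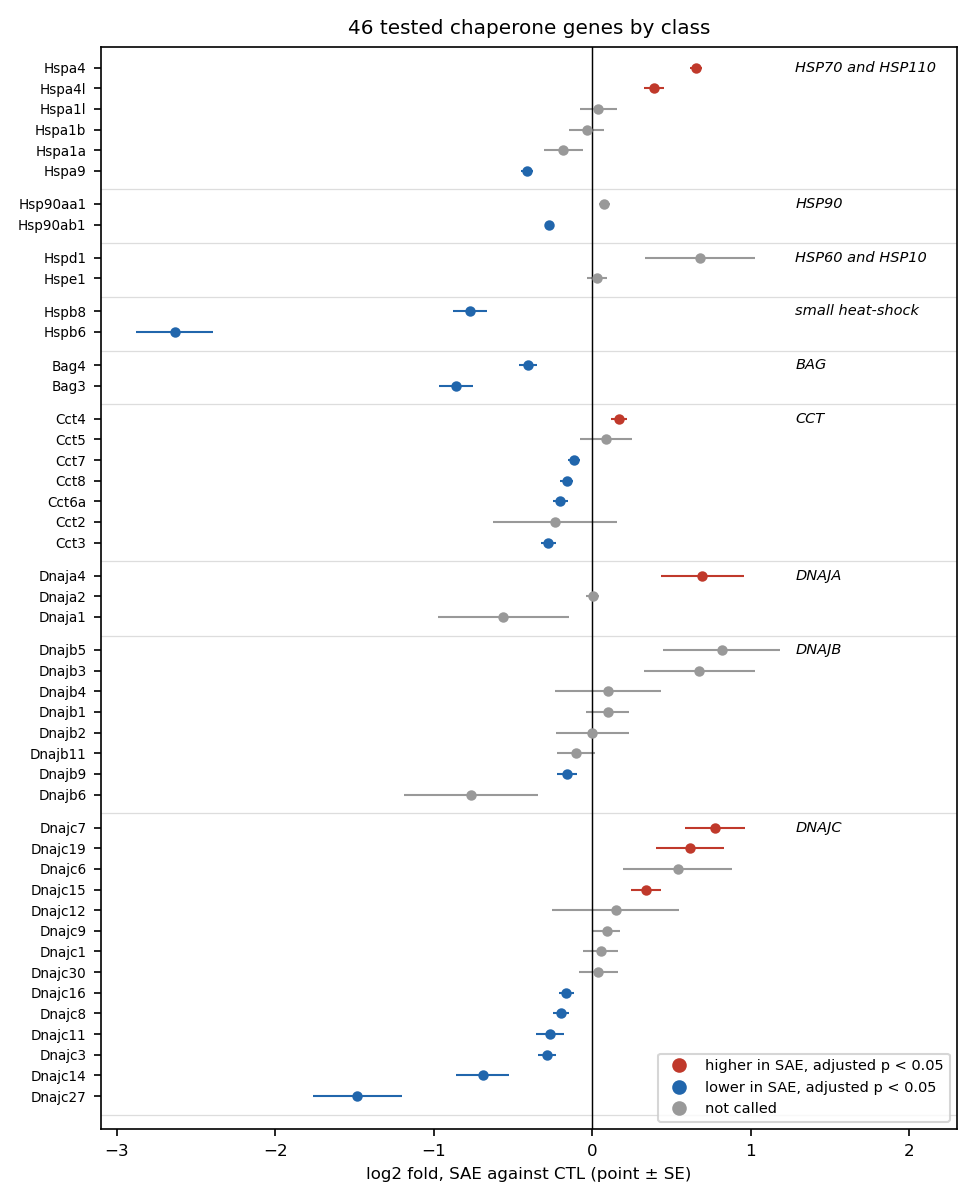
Points are the log2 folds of SAE against CTL for the 46 tested members, grouped by class, and bars are the approximate standard error. Red marks the 7 called higher in SAE, blue the 17 called lower and grey the 22 not called. Hspb6 lies farthest left at -2.63, and the highest called fold is that of Dnajc7 at 0.77.

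HSP90 is the core of the cytosolic late-folding machine, and Hsp90ab1 encodes its constitutive form. Hsp90ab1 had 40684, 42910 and 42320 counts in CTL and 34237, 34317 and 36841 in SAE. The groups did not overlap, and every SAE library was lower. Mean expression was 8839 ± 71 CPM in CTL and 7376 ± 184 in SAE (log2 fold -0.27 ± 0.03, adjusted p = 1.89e-08), a 1.21-fold difference. Hsp90aa1, the stress-inducible form, had 16028, 16585 and 16577 counts in CTL and 16641, 17057 and 18735 in SAE. The SAE libraries lay slightly above CTL after scaling, with means of 3454 ± 25.6 CPM in CTL and 3669 ± 174 in SAE, and the fold of 0.08 ± 0.03 was not called (adjusted p = 0.0711). It was called in 4 alternatives, with adjusted p = 0.042 by limma-voom, 0.0382 with all 9 libraries fitted, 0.0104 in genes with a single row and 0.0107 without SAE replicate 1. Per kilobase of transcript, Hsp90ab1 stood at 3508 CPM in CTL and 2927 in SAE, and Hsp90aa1 at 1053 and 1118. The ratio between the forms was thus narrower in SAE, though their difference was not itself tested.

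Among HSP70 and HSP110 genes the nucleotide exchange factors of the HSP110 branch were higher and the mitochondrial HSP70 was lower. Hspa4, an HSP110 protein also called Apg-2, had 2977, 3277 and 3161 counts in CTL and 4890, 4854 and 5227 in SAE. All SAE libraries stood well above all CTL libraries. The level went from 661 ± 17.5 to 1048 ± 24.2 CPM (log2 fold 0.65 ± 0.04, adjusted p = 1.11e-12), or 1.57-fold. Hspa4l, its close relative, had 842, 956 and 1033 counts in CTL and 1241, 1149 and 1360 in SAE, again with no overlap (log2 fold 0.39 ± 0.06, adjusted p = 1.47e-05). Hspa9, the mitochondrial HSP70 (mortalin) that pulls imported proteins into the matrix, had 5593, 6178 and 5929 counts in CTL and 4407, 4449 and 4584 in SAE. Here SAE was the lower group without overlap, at 941 ± 10.1 against 1242 ± 35.8 CPM (log2 fold -0.41 ± 0.04, adjusted p = 1.78e-09). Per kilobase it stood at 407 CPM in CTL and Hspa4 at 143. It is not ranked against Hspa8 or Hspa5, whose counts near 0 may be failed estimates.

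The inducible HSP70 genes were not called. Hspa1a, the classic heat-shock gene, had 192, 198 and 176 counts in CTL and 188, 170 and 146 in SAE. The groups overlapped, with means of 39.8 ± 2.88 and 35.3 ± 4.88 CPM (log2 fold -0.18 ± 0.12, adjusted p = 0.225), and the fold ran from -0.26 to -0.07 with 1 library left out. Its neighbour Hspa1b had 227, 193 and 195 counts in CTL and 203, 196 and 208 in SAE (log2 fold -0.04 ± 0.11, adjusted p = 0.811), also overlapping. Reads of this near-identical pair can be split uncertainly between them. Hspa1l, a testis-enriched relative beside them, had 153 to 164 counts in CTL and 156 to 174 in SAE (log2 fold 0.04 ± 0.12). Hspa12b, an endothelial HSP70-like gene, had 6 to 11 and 8 to 15 counts and was not tested.

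HSP60 and HSP10 form the folding chamber of the mitochondrial matrix. Hspe1, which encodes HSP10, had 759, 739 and 805 counts in CTL and 772, 762 and 841 in SAE. The groups overlapped at 162 ± 7.22 and 166 ± 5.94 CPM (log2 fold 0.03 ± 0.06, adjusted p = 0.734). Hspd1, which encodes HSP60, had only 10, 9 and 13 counts in CTL and 18, 18 and 16 in SAE. The SAE libraries were all higher, yet the gene was not called at these counts (log2 fold 0.68 ± 0.35, adjusted p = 0.113). Its counts came from 2 RefSeq rows, of which the larger had 9, 3 and 7 counts in CTL and 17, 18 and 14 in SAE. With that row alone the log2 fold was 1.34 (adjusted p = 0.00985). Counts of Hspd1 so far below those of Hspe1, in a gene with several rows, may be failed estimates as for Hspa8. In the GENCODE annotation the gene models of Hspd1 and Hspe1 overlap by 112 bases at their 5′ ends, on opposite strands, and the sources used here do not say whether reads were counted by strand.

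Small heat-shock proteins had the largest fold of any tested member. Hspb6, also called Hsp20 and abundant in muscle, had 72, 66 and 85 counts in CTL, 11, 11 and 14 in SAE. All SAE libraries were far below all CTL libraries. Mean expression was 15.7 ± 1.95 CPM in CTL and 2.52 ± 0.316 in SAE (log2 fold -2.63 ± 0.24, adjusted p = 2.7e-09), a 6.21-fold difference. The gene has 4 RefSeq rows, and its low counts may be failed estimates. Hspb8, which works with Bag3 in the selective removal of misfolded proteins, had 520, 533 and 441 counts in CTL and 303, 328 and 252 in SAE. It too was lower without overlap (log2 fold -0.77 ± 0.11, adjusted p = 9.32e-06). Hspb3 (1 to 11 counts) and Hspb7 (0 to 19 counts), both muscle genes, were too low to test. Of 10 smooth muscle and pericyte markers, 7 had counts and summed to 329 to 357 CPM in CTL and 489 to 583 in SAE. That sum was carried by the pericyte genes Rgs5 (192 CPM in CTL and 341 in SAE) and Vtn (127 and 186). The smooth muscle gene Acta2 had 21.7 ± 2.06 CPM in CTL and 17.7 ± 3.28 in SAE (log2 fold -0.31 ± 0.16, adjusted p = 0.118), Myh11, Tagln, Myl9 and Cnn1 were near 0, and Kcnj8, Higd1b and Abcc9 were listed at 0. The part of muscle cells in the Hspb6 difference was not tested.

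BAG proteins release clients from HSP70. Bag3, which directs them to autophagy together with Hspb8, had 339, 332 and 271 counts in CTL and 175, 171 and 179 in SAE. No library overlapped, and the SAE libraries were close together. The means were 66.2 ± 9.06 CPM in CTL and 36.7 ± 0.225 in SAE (log2 fold -0.86 ± 0.11, adjusted p = 5.65e-07), or 1.82-fold. Bag4, which binds death receptors of the TNF family, had 1550, 1479 and 1617 counts in CTL and 1110, 1184 and 1254 in SAE, a smaller drop without overlap (log2 fold -0.41 ± 0.05, adjusted p = 1.44e-06). Bag3 and Hspb8, partners in 1 complex, thus stood at 1.82-fold and 1.71-fold lower. Per kilobase Bag3 went from 25.9 to 14.3 CPM and Hspb8 from 57.8 to 34.1.

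**Figure D3:**
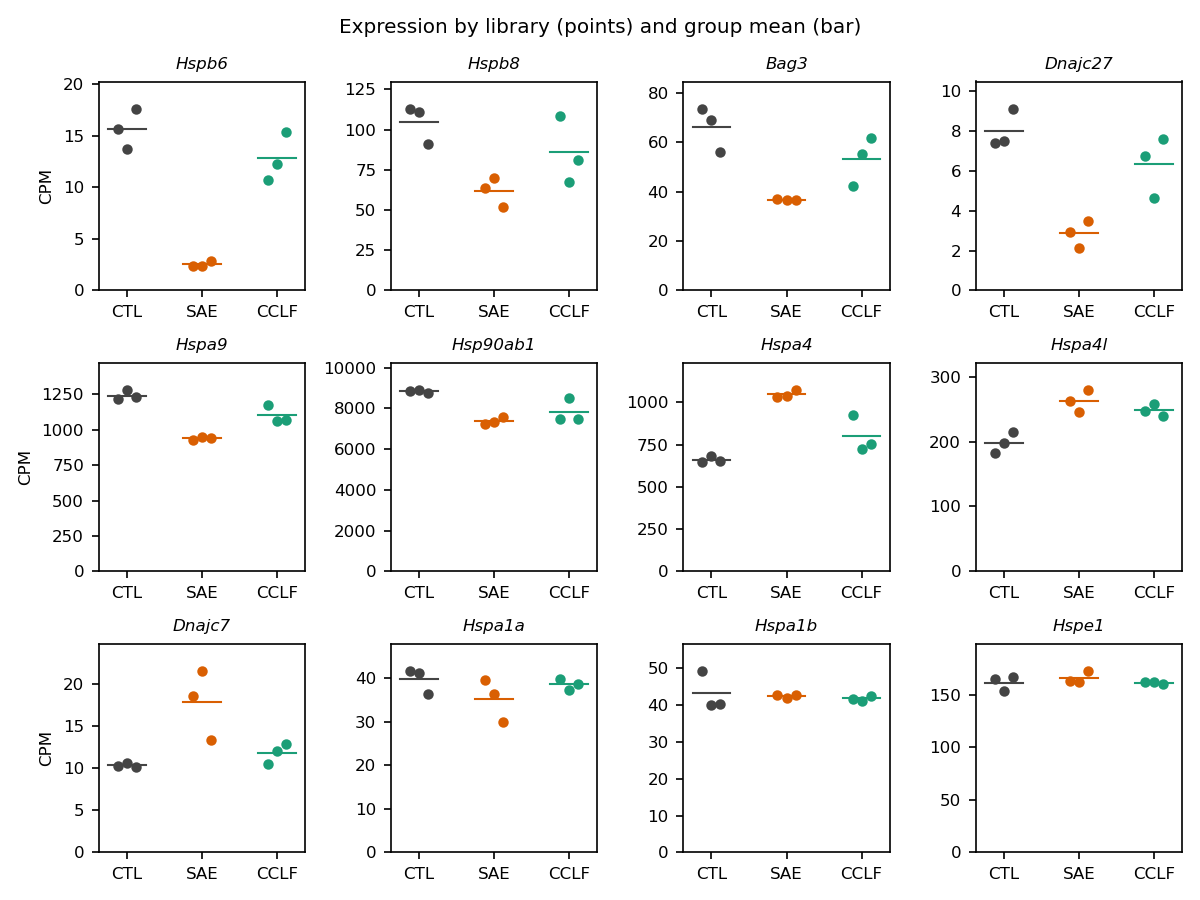
Each panel shows CPM by library (points) and the group mean (bar) for 1 gene, with the y axis starting at 0 and a scale of its own. Hspb6, Hspb8, Bag3, Dnajc27, Hspa9 and Hsp90ab1 were lower in every SAE library than in any CTL library, and Hspa4, Hspa4l and Dnajc7 were higher. In Hspa1a, Hspa1b and Hspe1 the groups overlap.

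CCT folds actin and tubulin, and its subunits did not all differ in the same direction. Cct3 had 2277, 2366 and 2300 counts in CTL and 1895, 1866 and 2032 in SAE, the lowest fold of the called subunits (-0.28 ± 0.04, adjusted p = 1.55e-05) and without overlap. Cct6a (-0.20 ± 0.05, adjusted p = 0.000669) and Cct8 (-0.16 ± 0.04, adjusted p = 0.00241) were lower as well. Cct7, the subunit with the highest CPM, had 3261, 3576 and 3554 counts in CTL and 3165, 3204 and 3325 in SAE. Its 1.08-fold difference was called (log2 fold -0.12 ± 0.04, adjusted p = 0.0198), but not without CTL replicate 2 (adjusted p = 0.0628), SAE replicate 1 (0.113) or SAE replicate 2 (0.0755), nor with no filter (0.0797) or in genes with a single row (0.057).

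Cct4 differed in the other direction. It had 1400, 1419 and 1563 counts in CTL and 1644, 1660 and 1668 in SAE, higher without overlap (log2 fold 0.17 ± 0.05, adjusted p = 0.00731). Without CTL replicate 2 its adjusted p was 0.0597. Cct5 (61 to 70 counts) and Cct2 (8 to 20 counts) had far fewer counts and were not called. The barrel holds its subunits in equal number, yet per kilobase in CTL Cct8 stood at 299.6 CPM, Cct7 at 298.7, Cct3 at 247, Cct4 at 124 and Cct5, a gene with 2 RefSeq rows, at 7.31. The sum over the 7 subunits was 2836 to 2918 CPM in CTL and 2599 to 2689 in SAE, with no overlap.

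J-domain proteins bring clients to HSP70, and the DNAJA and DNAJB classes are its general partners. Dnaja2, which had the highest CPM of them, had 3133, 3484 and 3311 counts in CTL and 3296, 3193 and 3553 in SAE. Low counts of genes with several rows, such as Dnaja1 and Dnajb6, may be failed estimates, so levels are not ranked. The groups overlapped at 697 ± 23.3 and 703 ± 25.6 CPM (adjusted p = 0.989), and the sign of this near-zero fold changed with the size factors. Dnaja4 had 15, 22 and 29 counts in CTL and 38, 31 and 39 in SAE, a 1.62-fold higher level (log2 fold 0.69 ± 0.26, adjusted p = 0.0324). That call was lost without CTL replicate 1 (adjusted p = 0.159), CTL replicate 2 (0.0716), SAE replicate 1 (0.0832) or SAE replicate 3 (0.0793), by the DESeq2 Wald test (0.121) and with no filter (0.0597). Dnaja1, a heat-inducible partner, had 13, 22 and 12 counts in CTL and 10, 17 and 5 in SAE (log2 fold -0.56 ± 0.41, adjusted p = 0.276), and its fold ran from -1.06 to -0.21 with 1 library left out.

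Of the DNAJB genes, Dnajb1 (HSP40) is the usual marker of the heat-shock response. It had 108, 112 and 105 counts in CTL and 106, 127 and 118 in SAE, overlapping groups with a log2 fold of 0.10 ± 0.14 (adjusted p = 0.597), which ran from 0.03 to 0.17 with 1 library left out. Dnajb9, a partner of the endoplasmic reticulum HSP70, had 809, 884 and 859 counts in CTL and 730, 743 and 836 in SAE. It was called 1.12-fold lower (log2 fold -0.16 ± 0.06, adjusted p = 0.0324), but not without CTL replicate 1 (adjusted p = 0.0605), CTL replicate 2 (0.0919), SAE replicate 1 (0.182) or SAE replicate 2 (0.137), nor by the DESeq2 Wald test (0.0783), with no filter (0.0789) or in genes with a single row (0.0642). The other DNAJB folds that were not called ran from -0.77 ± 0.42 for Dnajb6 to 0.81 ± 0.37 for Dnajb5, both with at most 20 counts per library. Dnajb11, another endoplasmic reticulum partner, had 151 to 189 counts and a log2 fold of -0.10 ± 0.12.

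DNAJC proteins are specialised, and here called genes lay on both sides. Dnajc27, a small GTPase with a J domain, had 34, 36 and 44 counts in CTL and 14, 10 and 17 in SAE. All SAE libraries were lower (log2 fold -1.48 ± 0.28, adjusted p = 0.000106), 2.79-fold. The gene has 13 RefSeq rows, of which 2 held counts. The larger had 34, 36 and 41 counts in CTL and 10, 9 and 13 in SAE. The smaller went the other way, with 0, 0 and 3 in CTL and 4, 1 and 4 in SAE. With the larger row alone the log2 fold was -1.80 (adjusted p = 1.38e-05). Dnajc14, which takes part in receptor export from the endoplasmic reticulum, had 102, 124 and 86 counts in CTL and 66, 65 and 64 in SAE (log2 fold -0.69 ± 0.17, adjusted p = 0.00121), again without overlap. Dnajc3 (p58IPK), an inhibitor of the stress kinase PERK, had 1432, 1545 and 1445 counts in CTL and 1317, 1196 and 1144 in SAE (log2 fold -0.29 ± 0.06, adjusted p = 0.000194). Dnajc16, which had the highest CPM of the DNAJC members, had 1514, 1589 and 1589 counts in CTL and 1421, 1412 and 1396 in SAE (log2 fold -0.17 ± 0.05, adjusted p = 0.00629). Dnajc11 (-0.27 ± 0.09, adjusted p = 0.0152), found at the mitochondrial membranes, and Dnajc8 (-0.20 ± 0.05, adjusted p = 0.00212), a splicing-associated protein, were also lower.

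On the other side, Dnajc7, which binds both HSP70 and HSP90, had 47, 51 and 49 counts in CTL and 88, 101 and 65 in SAE. It was higher in every SAE library (log2 fold 0.77 ± 0.19, adjusted p = 0.00153). Dnajc15 and Dnajc19 both belong to the import motor at the inner mitochondrial membrane. Dnajc15 had 241, 238 and 277 counts in CTL and 289, 331 and 346 in SAE (log2 fold 0.34 ± 0.10, adjusted p = 0.0058). Dnajc19 had 32, 30 and 38 counts in CTL and 46, 57 and 52 in SAE (log2 fold 0.62 ± 0.21, adjusted p = 0.019). These import genes were thus higher where Hspa9, the HSP70 they serve, was lower. The Dnajc19 counts came from 2 RefSeq rows: 1 had 11, 14 and 13 counts in CTL and 30, 25 and 33 in SAE, and the other, slightly larger over the 6 libraries, had 21, 16 and 25 in CTL and 16, 32 and 19 in SAE. With that larger row alone its log2 fold was 0.10 (adjusted p = 0.817). It also lost its call without CTL replicate 2 (adjusted p = 0.0767) or SAE replicate 2 (0.0767) and by the DESeq2 Wald test (0.0856).

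The other genes of the chaperone network were read from lists of 86 genes, the 3 left out by name among them, of which 46 were tested, 11 higher and 11 lower in SAE. The called share, 47.8%, was close to that of all tested genes (47.6%). Hsf1, the heat-shock factor itself, was listed at 0 in every library, and Hsf2 (log2 fold -0.10 ± 0.23, adjusted p = 0.736) and Hsbp1 (-0.07 ± 0.04, adjusted p = 0.151) were not called. Of the HSP90 co-chaperones, the longest list, 7 of 16 tested were higher and 3 lower, where 23.7% and 23.9% of all genes were, with a median log2 fold of 0.08. Chordc1, which binds the HSP90 ATPase domain, had 250, 294 and 346 counts in CTL and 890, 816 and 871 in SAE (log2 fold 1.52 ± 0.08, adjusted p = 1.83e-13). The immunophilins differed in direction. Fkbp5, a glucocorticoid-induced inhibitor of the glucocorticoid receptor, had 3747, 4081 and 4086 counts in CTL and 1648, 1644 and 1473 in SAE (-1.34 ± 0.05, adjusted p = 2.06e-16). Fkbp4, which acts in the opposite sense on that receptor, had 1488, 1611 and 1578 counts in CTL and 2032, 1951 and 2082 in SAE (0.36 ± 0.05, adjusted p = 5.48e-07).

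The remaining lists had few tested genes. Of 4 tested HSP70 co-chaperones, St13 was higher (log2 fold 0.20 ± 0.04, adjusted p = 0.000653) and Tomm70a, an import receptor, lower (-0.18 ± 0.04, adjusted p = 0.000921). Of 6 tested prefoldin and CCT helpers only Txndc9, a CCT regulator, was called, with 241, 308 and 219 counts in CTL and 109, 130 and 100 in SAE (-1.19 ± 0.14, adjusted p = 2.25e-07). Of 9 tested mitochondrial partners 2 were higher and 2 lower. Clpb, a disaggregase of the intermembrane space, went from 71, 71 and 86 counts to 291, 280 and 339 (1.98 ± 0.12, adjusted p = 2.2e-12), while Timm44, which tethers Hspa9 to the import channel, was lower (-0.42 ± 0.06, adjusted p = 4.73e-06), as was the protease Lonp1 (-0.14 ± 0.05, adjusted p = 0.0216). Of 4 tubulin cofactors only Tbca was called (-0.24 ± 0.07, adjusted p = 0.00841). Naca (-1.82 ± 0.14, adjusted p = 4.02e-10) and Btf3 (-2.24 ± 0.40, adjusted p = 5.03e-05), which together form the nascent-chain complex at the ribosome, were both lower. Naca had 268, 362 and 267 counts in CTL and 69, 92 and 96 in SAE. Btf3 had 26, 23 and 27 in CTL and 2, 7 and 7 in SAE. Both genes have several RefSeq rows, and such low counts may be failed estimates as for Hspa8, so nothing is drawn about the complex. Clpb, with 8 rows, and Txndc9, with 3, carry the same doubt. Of the genes left out by name, Hspb1 was lower (-3.09 ± 0.18, adjusted p = 1.06e-06), Hsp90b1 was higher (0.23 ± 0.04, adjusted p = 2.47e-05), and Hspa5 had at most 1 count.

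**Figure D4:**
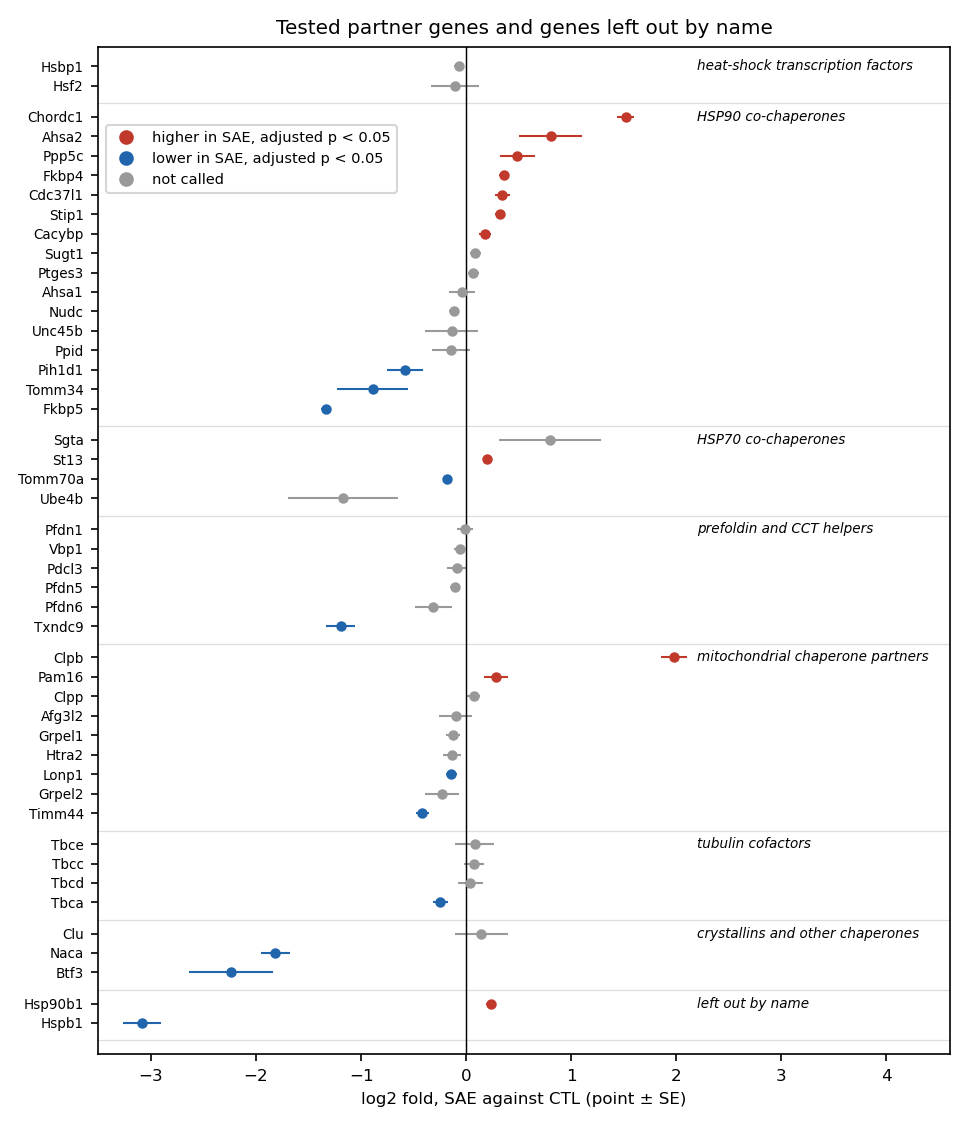
Log2 folds of SAE against CTL (points, with the approximate standard error as bars) are shown for the tested genes of the partner lists and for Hsp90b1 and Hspb1. Red is called higher in SAE, blue called lower and grey not called. Chordc1 (1.52) and Clpb (1.98) lie farthest right, and Hspb1 (-3.09) farthest left.

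In the CCLF libraries the called members sat between the other groups. The CCLF mean lay between the CTL and SAE means in 24 of 24 called members, and in 37 of all 49 members. It also lay between them in 441 of the 442 genes with enough counts and a 2-fold difference given above, so nothing about chaperones is read from it. On a scale where CTL is 0 and SAE is 1 the position ran from 0.192 for Cct7 to 0.941 for Cct4, with a median of 0.489. It was nearer CTL in 12 members and nearer SAE in 12.

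**Figure D5:**
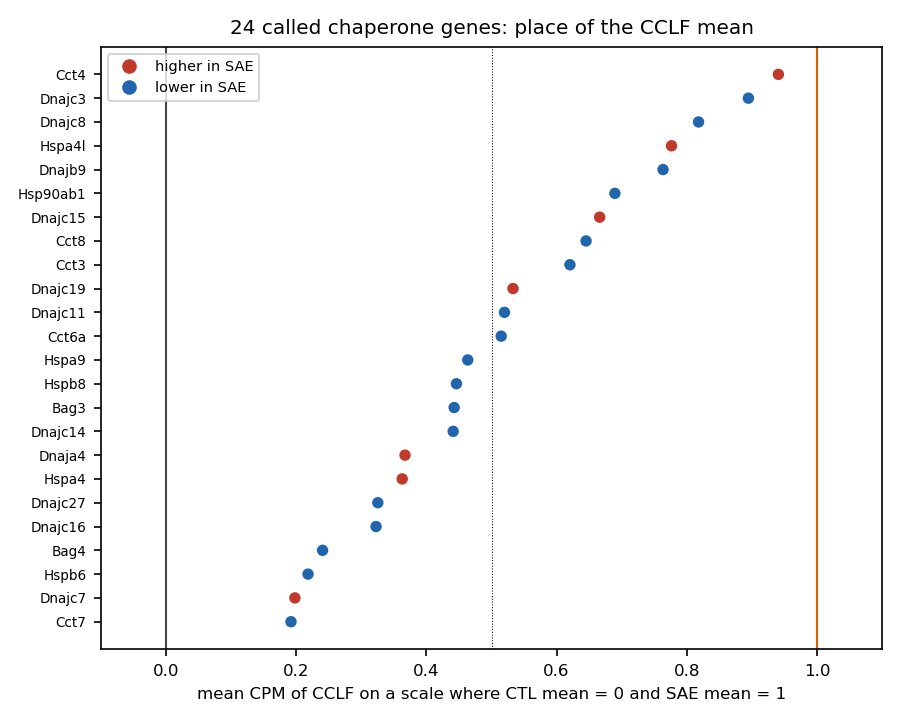
The mean CPM of the CCLF libraries is placed on a scale where the CTL mean is 0 (dark line) and the SAE mean is 1 (orange line), for the 24 members called in SAE against CTL. Red members were higher in SAE and blue ones lower. All 24 lie between the lines, 12 on each side of the midpoint.

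In the fit of all 9 libraries, 47 members were tested. Against SAE, 5 members were higher in CCLF (7.09% of all 8479 tested genes were) and 2 were lower (4.19%). Hspb6 had 51, 58 and 73 counts in CCLF, all above SAE (adjusted p = 3.5e-05). Hspa9 (5565, 5049 and 5077 counts, adjusted p = 0.00365), Bag4 (1336, 1502 and 1539, adjusted p = 0.00723), Dnajc27 (32, 22 and 36, adjusted p = 0.0148) and Bag3 (201, 262 and 294, adjusted p = 0.0247) were the others that were higher. Hspa4 (4381, 3443 and 3578, adjusted p = 0.0097) and Dnajc7 (50, 57 and 61, adjusted p = 0.0429) were lower. The number of lower members was 1 whichever SAE or CCLF library was left out, and that of higher members 3 without SAE replicate 1 or SAE replicate 2. Of all genes, 11.3% were called with every library kept, 5.91% without SAE replicate 1 and 5.74% without SAE replicate 2.

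Against CTL, 3 members were higher in CCLF (5.89% of all tested genes were) and 5 were lower (4.16%). The higher ones were Hspa4l (1171, 1225 and 1134 counts, adjusted p = 0.00879), Cct4 (1648, 1629 and 1643, adjusted p = 0.0273) and Hspa4 (adjusted p = 0.0445). The lower ones were Dnajc3 (adjusted p = 0.0165), Hspa9 (0.018), Hsp90ab1 (35578, 40292 and 35566 counts, 0.022), Cct3 (0.0395) and Dnajc8 (0.046). Without CTL replicate 1 no member was called in either direction, without CTL replicate 2 only 1 was higher and 0 lower, and without CTL replicate 3 or CCLF replicate 2 the lower ones numbered 3. Without CCLF replicate 3 only 1 was higher. Of all genes, 10% were called against CTL with every library kept. That share was 4.62% without CTL replicate 1, 4.04% without CTL replicate 2 and 8.13% without CTL replicate 3. It was 8.88% without CCLF replicate 2 and 8.52% without CCLF replicate 3. In 1 CCLF library Hspa4 stood near SAE, and in another Hsp90ab1 stood near CTL, while the remaining libraries lay closer together.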

How the data were processed

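The authors deposited 1 table of whole-number counts per RefSeq transcript for 9 libraries. Per the submitters' processing notes fastp and Salmon were used; their versions and settings, the index and the build were not given in the sources used here. Rows were named with the RefSeq table of GRCm38.p6 (120299 of 120312 matched; the 13 others held 0 counts and were left out) and summed to genes. SAE and CTL were compared with edgeR's quasi-likelihood test (filterByExpr, TMM scaling, robust fit, Benjamini-Hochberg adjustment) in 6 libraries, and CCLF in a fit of 9. CPM uses the factors of the latter. SE was approximated as the absolute log2 fold over the root of its F statistic. Calling was tested on simulated data. Members and lists were chosen with earlier results of these data known. Members given in full are the called ones with the 10 highest and 10 lowest folds, each class's most abundant gene and the common heat-shock genes; partner genes are up to 3 called per list with the smallest p. Alternatives were DESeq2 size factors and Wald test, limma-voom, other filters, other libraries in the fit, a replicate block, other transcript handling and each library left out. Lengths (GENCODE transcripts) were found for 41 members. Versions used were edgeR 4.0.16, DESeq2 1.42.0 and limma 3.58.1 in R 4.3.3, with pandas 2.3.3, scipy 1.17.1, numpy 2.4.6 and matplotlib 3.10.9 in Python 3.11.15.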

Additional observations from a re-analysis of the deposited data

How the results depend on the processing

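Of 28 members given in full, 18 kept direction and side of the threshold in every alternative run. In genes with a single RefSeq row, which are fewer, the members higher and lower in SAE numbered 4 and 11 and the called partner genes 12 (22 otherwise). Of all genes in that fit 53.7% were called, against 47.6% otherwise. Leaving out 1 library, the members higher in SAE ranged from 4 to 8, those lower from 14 to 17 and the partner genes from 17 to 21. Of all genes, 40.8% to 45.5% were called with 1 library left out. Against SAE, CCLF had 1 lower member by the DESeq2 Wald test, by limma-voom, in only the 6 libraries compared, with the replicate block and in genes with a single row (with 3 higher), and 9 higher with no filter. Leaving out 1 library gave 3 to 6 higher and 1 lower in each case. Of all genes, 11.3% were called against SAE in the fit of 9 libraries and 5.74% to 10.3% with 1 left out. The share was 9.66% by the DESeq2 Wald test, 10.1% by limma-voom and 8.34% in only the 6 libraries compared. It was 10.7% with the replicate block, 13.9% in genes with a single row and 6.8% with no filter. Against CTL, CCLF had 3 lower members by the DESeq2 Wald test and 1 higher and 1 lower in only the 6 libraries compared. Leaving out 1 library gave 0 to 2 higher and 0 to 5 lower. Of all genes, 10% were called against CTL in the fit of 9 libraries and 4.04% to 9.17% with 1 left out. The share was 8.24% by the DESeq2 Wald test and 6.25% in only the 6 libraries compared. Called genes with several rows, such as Hspa4l, Dnajc7, Hspb6 and Dnajc27, could not enter the fit of genes with a single row. Apart from that, the cause of these shifts was not tested. Dnaja2, with a fold near 0, changed sign with DESeq2 size factors and the Wald test (both -0.0038) and ranged from -0.024 to 0.033 with 1 library left out. Hspa1b ranged from -0.095 to 0.068 and Hspe1 from -0.015 to 0.054. Same-numbered CTL and SAE libraries did not deviate together (correlations 0.027, -0.013 and 0.023), so the numbers pair nothing; with the replicate block 7 members were higher and 17 lower in SAE, as without it. With a mean count of at least 1 in place of 5 the rule gives 63 members, and with 10 it gives 46. The log2 folds of members with at most 20 counts per library had wide standard errors, such as 0.39 for Cct2 and 0.42 for Dnajb6.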
